A study of Mus musculus with 4 samples.

Results

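Microglia, the resident macrophages of the brain, were compared between wild-type and IRF8KO mice by whole-genome bisulfite sequencing, and 314 differential regions form the subject here. They were selected on the authors' deposited region levels and on position: the level was higher in the first than in the second group, the midpoint lay in no protein-coding gene, no base touched a protein-coding exon, and the nearest protein-coding transcript start was more than 1000 bp and at most 50000 bp away. The whole table has 3389 regions, and 1808 of them had the higher level in the first group. The regions that meet the same rule on position but were lower in the first group number 304 and serve for comparison. Because the sign of the difference chose the regions, levels and differences below are a description and carry no test.

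The wild-type and IRF8KO groups had 2 samples each, all of sorted, untreated microglia from C57BL/6J mice of 3 months. How the Irf8 allele was made, and whether replicates came from separate animals, is not stated in the labels, so the authors' p-values may measure technical spread. The deposited tables give 1 fitted level per group and none per sample, the read depth is unknown, and the cell type cannot be checked on marker genes from DNA methylation of these lists. The headers number the groups without naming a genotype, so neither number is tied to one here.

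Intergenic DNA near genes holds many enhancers, elements that transcription factors bind to raise transcription from a distance. In macrophages, enhancers are bound by PU.1, an ETS factor, with partners such as IRF8, C/EBP, RUNX and AP-1 factors, and DNA at bound CpGs is usually less methylated than the surrounding DNA. A region that is methylated in one group and less so in the other is a candidate for an element used differently, but methylation does not by itself measure enhancer activity or expression.

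The sequences show how differently CpGs are packed in these regions. All are printed 5′ to 3′ on the forward strand of GRCm38 (mm10), and the capitals mark each CpG. The region of Sall1 is the one with the most cytosines, that of Os9 has the second largest area score (the authors' score summed over a region), and those of Cd163 and Ch25h are at a scavenger receptor gene and an oxysterol enzyme gene.
Sall1 region, chr8:89025535-89025834: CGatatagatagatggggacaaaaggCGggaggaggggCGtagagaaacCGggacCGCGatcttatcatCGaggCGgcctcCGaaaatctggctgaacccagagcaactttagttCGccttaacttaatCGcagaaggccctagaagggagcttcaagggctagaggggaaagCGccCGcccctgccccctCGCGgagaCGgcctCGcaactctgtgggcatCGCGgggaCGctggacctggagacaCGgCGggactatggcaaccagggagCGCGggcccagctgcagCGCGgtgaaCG
Os9 region, chr10:127138572-127138871: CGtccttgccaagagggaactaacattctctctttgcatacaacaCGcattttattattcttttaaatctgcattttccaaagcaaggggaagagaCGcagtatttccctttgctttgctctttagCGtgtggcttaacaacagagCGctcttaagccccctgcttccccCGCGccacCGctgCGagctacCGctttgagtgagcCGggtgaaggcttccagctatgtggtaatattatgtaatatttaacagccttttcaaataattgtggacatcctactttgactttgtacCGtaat
Cd163 region, chr6:124279302-124279566: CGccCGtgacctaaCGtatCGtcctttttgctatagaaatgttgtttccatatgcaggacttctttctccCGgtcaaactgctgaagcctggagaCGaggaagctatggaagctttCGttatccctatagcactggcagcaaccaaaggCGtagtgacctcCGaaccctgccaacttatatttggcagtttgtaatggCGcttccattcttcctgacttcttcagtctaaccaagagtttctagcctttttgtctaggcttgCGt
Ch25h region, chr19:34447621-34447826: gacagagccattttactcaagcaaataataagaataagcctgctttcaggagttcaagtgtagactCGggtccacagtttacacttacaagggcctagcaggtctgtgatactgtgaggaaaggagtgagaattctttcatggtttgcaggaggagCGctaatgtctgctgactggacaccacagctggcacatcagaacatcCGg
The stretch of 300 bases at Sall1 holds 27 CpGs, that at Os9 holds 12, the 265 bases at Cd163 hold 11 and the 206 bases at Ch25h hold 3. The Cd163 and Ch25h stretches run 1 base past the deposited end, which completes the last CpG.

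The typical region was mostly methylated in the first group and mostly unmethylated in the second. Over the 314 regions, the median level in the authors' deposited table was 0.737 in the first group (quartiles 0.655 and 0.824) and 0.307 in the second (0.223 and 0.425). The median difference in the authors' deposited table was 0.396, with quartiles of 0.350 and 0.455 and a highest value of 0.625. In 44 regions (14.0%) the authors' deposited table gave a level of at least 0.7 in the first group and at most 0.3 in the second. The smallest difference in the authors' deposited table was 0.0739, near Ccdc85a, and the nearest value on the other side of 0 was -0.0363, near Ryr3.

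**Figure D1:**
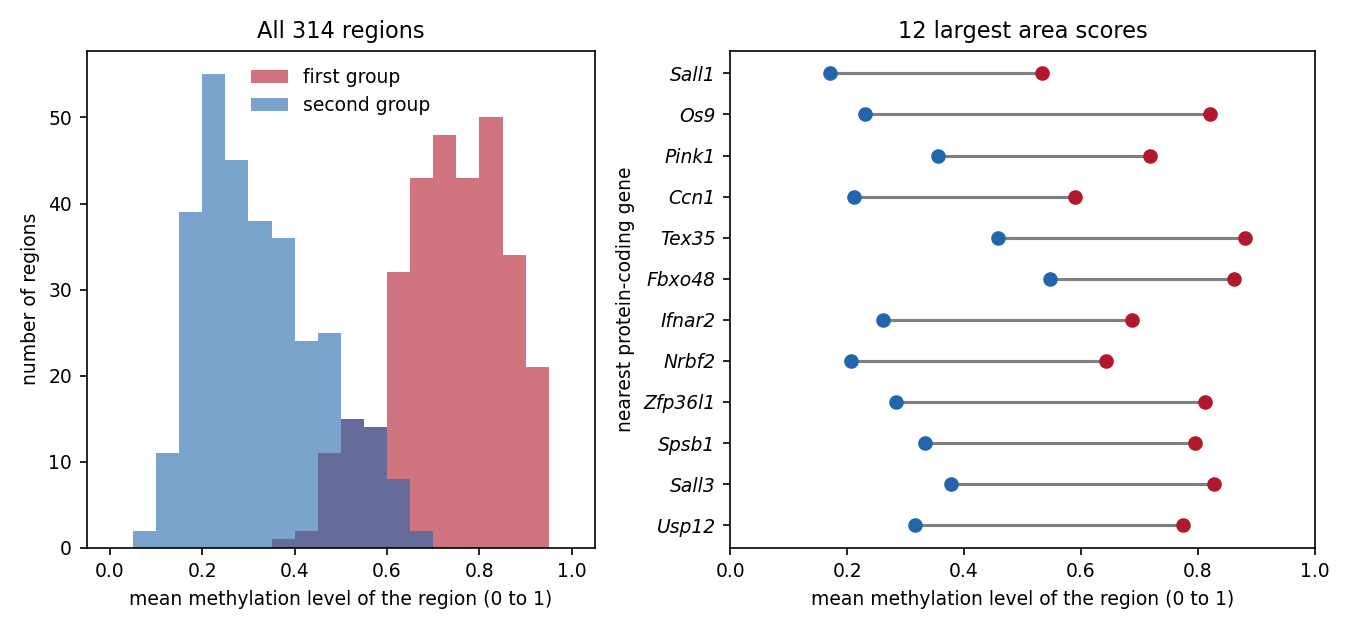
Mean methylation level per region in the first group (red) and second group (blue), as deposited by the authors; left, histogram of all 314 regions, and right, the 12 regions with the largest area score by nearest protein-coding gene, each line joining the levels of both groups. The blue values lie mostly under 0.5 and the red ones mostly above it, with medians of 0.307 and 0.737.

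The regions were short. Their median length was 161.5 bp (52 to 2079) and the authors counted a median of 8 cytosines in each (4 to 120). The number of separate CpGs was smaller, since the C on each strand of a CpG was listed as its own position. Of 3594 listed positions inside the regions, 1527 lay on the C and 1489 on the G of a reference CpG, together 83.9%. Of the 578 others, 486 (84.1%) were in a CHG context (C, then any base but G, then G) of the reference on the strand of the cytosine, and none was on an A or T. The median region held 3 reference CpGs, 115 regions (36.6%) held fewer than 3, and 40 (12.7%) held 10 or more. The lower regions had a median length of 200 bp and a median of 4 reference CpGs, with 29.6% holding fewer than 3, and 83.3% of their listed positions lay on a reference CpG.

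At least 1 position with a false discovery rate (FDR) under 0.05 lay in 231 of the 314 regions (73.6%), against 77.9% of all 3389 regions. Of the listed positions inside the regions, 1744 (48.5%) had such an FDR, against 18.7% of all listed positions. These are the same comparison that chose the regions, so nothing is read from them. In 21 regions every listed position passed, and 83 regions rest on none that did. The median standard error of a position's difference, taken per region, had a median of 0.101 over the regions (0.0525 to 0.137).

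Where positions were listed outside the region borders, most had the same direction. Within 500 bp outside, 219 of the 314 regions had a listed position, and positions that are not listed could not be counted. Within that distance lay 1532 listed positions, and 1526 of these (99.6%) had the higher level in the first group. Within 5000 bp it was 2794 of 3062 (91.2%), and over all listed positions of the series 61.9% were higher in the first group. Whether the authors smoothed levels over neighbouring positions is not stated in the labels or headers. In some regions every listed position had the same difference in the authors' deposited table: 0.541 at all 14 near Ccm2 and 0.503 at all 13 near Odf2l. In others it varied, from 0.415 to 0.658 near Os9. Listed positions are therefore not separate observations, and neither the flanks nor counts of positions past the threshold are read as such. Within 1000 bp, 0 of the 314 had a lower region of any location and 30 had another higher one, and within 50000 bp the numbers were 56 (17.8%) and 100 (31.8%).

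Genome position was only partly set by the rule, and the side of the gene was not. Of the 314 regions, 228 lay upstream of the nearest start (72.6%, 95% Clopper-Pearson interval 67.3 to 77.5) and 86 downstream beyond the gene's protein-coding models. This is close to the 70.6% of all 300 bp windows of the genome that meet the same rule on position, and to 71.7% of the lower regions. The median distance was 17038 bp. Counted per 10000 genome windows with at least 3 CpGs, there were 5.89 regions between 1000 and 5000 bp from a start, 4.67 between 5000 and 10000, 4.06 between 10000 and 25000, and 4.86 beyond that, so that no steady fall with distance was seen. Just inside the limits were regions 1071 bp from the Pmepa1 start, with a difference of 0.363, and 49989 bp from that of Nnmt, with 0.381, in the authors' deposited table. Just outside were regions 988 bp from the Scd4 start, with 0.378, and 50342 bp from that of P4ha2, with 0.421, in the authors' deposited table.

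The annotation gave few of these places a name of their own. A gene that is not protein-coding contained the midpoint in 35 regions (11.1%), mostly long noncoding RNA genes such as Junos next to Jun, 0610040F04Rik next to Bhlhe40, and Airn, the noncoding antisense transcript of the imprinted Igf2r locus. Among them is Clec7a, which encodes the beta-glucan receptor dectin-1: GENCODE M21 gives Clec7a as a polymorphic pseudogene, so the rule took the region as intergenic and Clec1a as its gene. An enhancer in RefSeq's list of functional elements overlapped 2 of the regions, near Zfp36l1 and Ndfip1. These genes were named after their values had been seen.

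Transcription factor motifs in the regions differed from those of the lower regions. In the 300 bp around each midpoint, AP-1, C/EBP and RUNX motifs were present in larger shares of the 314 regions, and the ETS-IRF composite element in a smaller share. AP-1 factors are dimers of Fos, Jun and Batf proteins that act at stimulus-responsive enhancers, C/EBP and RUNX factors take part in myeloid development, and the composite element is where IRF8 binds DNA beside PU.1. Every motif was searched on both strands, and none of the shares was tested between sets, since regions are not replicates of a condition.

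The AP-1 motif TGANTCA was present in 56 of 314 windows, or 17.8% (95% Clopper-Pearson interval 13.8 to 22.5, counting error only). In the lower regions it was present in 27 of 304, or 8.88% (5.94 to 12.7). All windows of the genome that meet the rule on position and hold at least 3 CpGs had it in 8.64%, and RefSeq promoters of the same length in 7.79%. With C or G alone at the free base, the form TGACTCA or its complement, the shares were 11.8% in the regions, 6.58% in the lower regions and 5.03% in the genome windows. The 200 bp bins on either side of the midpoint had the motif in 11.5% and 12.1% of regions, and the 8 bins farther out, to 1000 bp on each side, in 2.87% to 8.92%.

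The C/EBP motif TTGCNNAA was present in 66 windows, or 21.02% (16.6 to 25.9), against 11.8% (8.43 to 16.0) of the lower regions and 12.4% of the genome windows. The RUNX motif TGTGGT was present in 94, or 29.9% (24.9 to 35.3), against 19.1% (14.8 to 24.0) and 21.4%. At least 1 of the 3 motifs lay in 164 windows (52.2%), against 33.6% of the lower regions. AP-1 and C/EBP stood together in 14 windows (4.46%) and in 2 of the lower ones (0.658%). Among the 314 windows 10 pairs overlapped, so 1 motif can count in 2 windows, and the intervals do not allow for that. The MAF core TGCTGA, which overlapped an AP-1 motif in 6 windows, was present in 31.2% (26.1 to 36.7) of the regions, 25.3% of the lower regions and 21.8% of the genome windows. The shares were of the same order in the other regions higher in the first group: in the 930 intronic ones outside exons and promoters AP-1 was present in 14.3%, C/EBP in 17.6% and RUNX in 28.1%.

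Other motifs differed little from the genome windows in the regions. The IRF repeat GAAANNGAAA, bound by IRF factors in interferon-stimulated genes, was present in 5.10% (genome windows 4.03%), the PU.1 form GAGGAAGT in 1.59% (2.01%), and the ETS core GGAA, which is part of that form and of the composite, in 95.9% (96.2%). The MEF2 form CTANNNNTAG was present in 5.41% (4.27%), the NF-kB form GGGNNTTTCC in 1.27% (1.24%), the nuclear receptor core AGGTCA in 17.8% (17.3%), the E-box CANNTG in 79.3% (81.4%), and the CACGTG form of that E-box in 6.37% (5.57%). The 95% intervals of the regions' shares held the genome value for all of these 8 motifs.

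**Figure D2:**
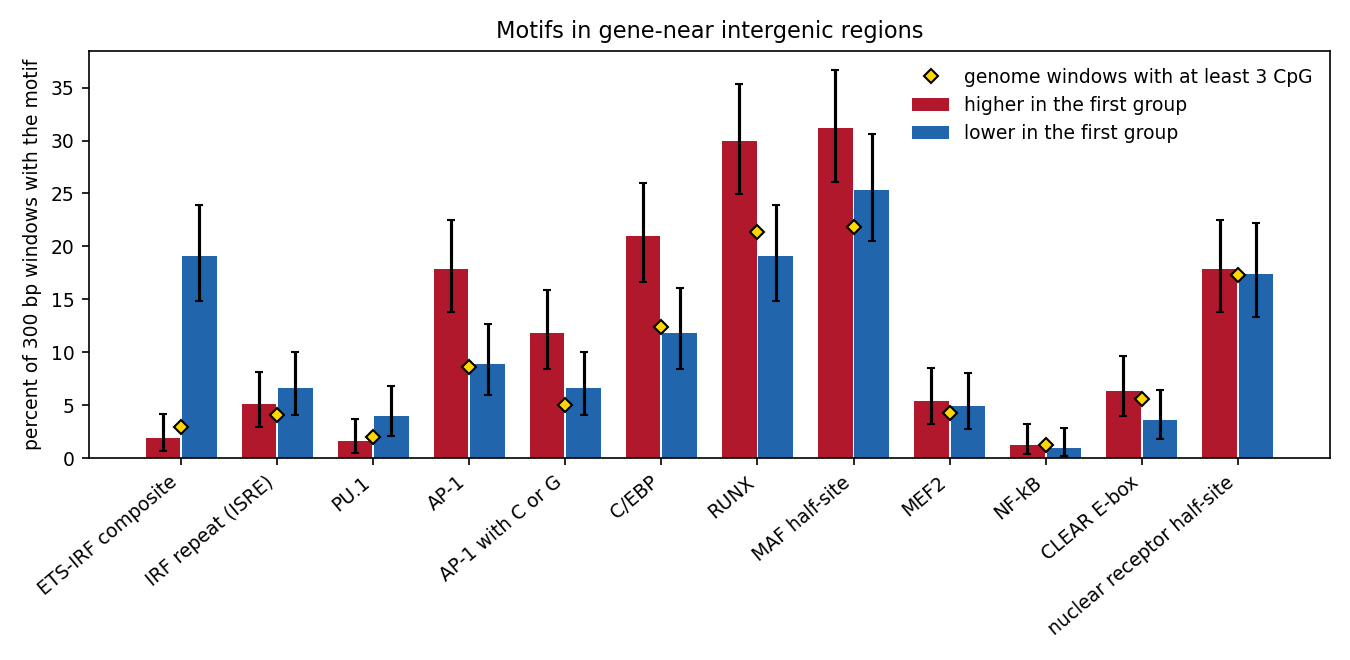
Share of 300 bp windows that hold each motif, in percent, for the 314 higher regions (red), the 304 lower in the first group (blue) and all genome windows with at least 3 CpGs that meet the same rule on position (diamonds); error bars are 95% Clopper-Pearson intervals. AP-1 (17.8% against 8.88%), C/EBP (21.02% against 11.8%) and RUNX (29.9% against 19.1%) are higher in red, and the ETS-IRF composite (1.91% against 19.1%) is higher in blue.

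**Figure D3:**
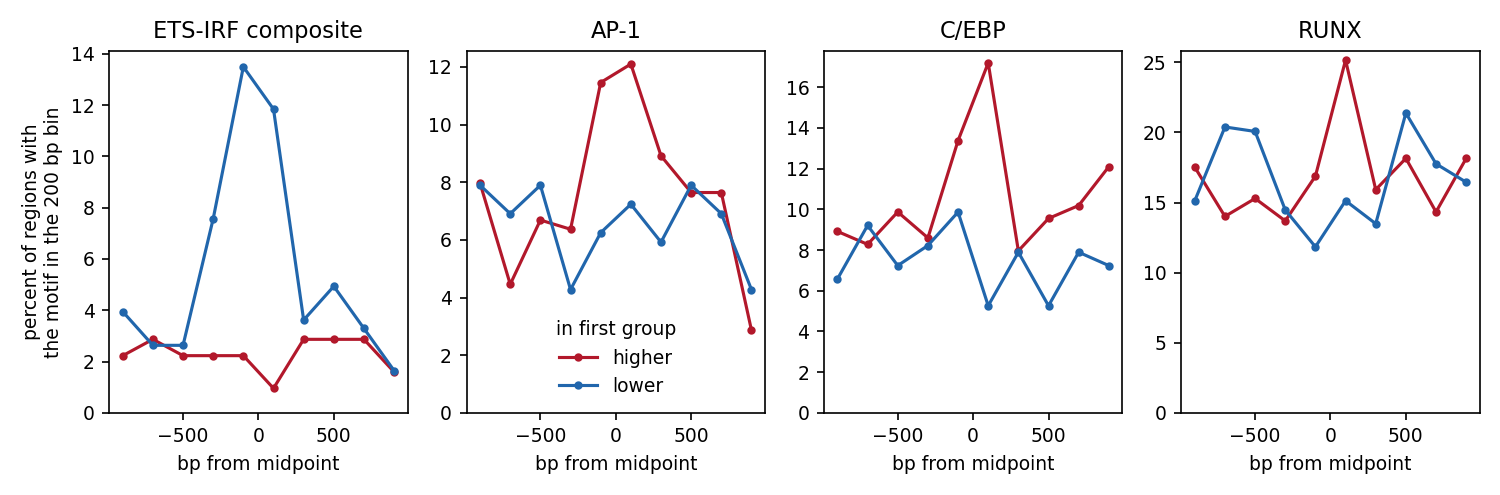
Share of regions with a motif in each 200 bp bin (vertical axis, percent) by distance of the bin from the region's midpoint (horizontal axis, bp), for regions higher (red) and lower (blue) in the first group. The red AP-1 line reaches 12.1% and the red C/EBP line 17.2% beside the midpoint, while the blue ETS-IRF line reaches 13.5% there.

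The motifs are shown in regions that carry them, with the motif in capitals, on the forward strand of GRCm38, and with 81 bases each. The first 5 lines hold the AP-1 motif at genes for a Kruppel-like factor, a phosphoinositide kinase, an AP-1 subunit, a ubiquitin ligase adaptor and a deubiquitinase. The next 3 hold the C/EBP motif, and the 2 after them the RUNX motif.
Klf2 region, chr8:72322654-72322734: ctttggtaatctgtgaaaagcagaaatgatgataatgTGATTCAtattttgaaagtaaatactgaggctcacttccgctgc
Pik3cg region, chr12:32234311-32234391: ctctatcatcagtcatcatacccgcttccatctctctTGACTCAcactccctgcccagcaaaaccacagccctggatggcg
Jun region, chr4:95081816-95081896: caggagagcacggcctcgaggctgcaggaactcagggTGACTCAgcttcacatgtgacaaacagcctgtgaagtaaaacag
Spsb1 region, chr4:149875128-149875208: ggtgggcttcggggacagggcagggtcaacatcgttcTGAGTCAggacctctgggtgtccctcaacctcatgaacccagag
Usp12 region, chr5:146812115-146812195: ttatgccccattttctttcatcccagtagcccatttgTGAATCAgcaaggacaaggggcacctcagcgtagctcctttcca
Klf2 region, chr8:72322739-72322819: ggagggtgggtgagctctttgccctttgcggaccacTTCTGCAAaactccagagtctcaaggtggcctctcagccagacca
Apoc4 region, chr7:19683884-19683964: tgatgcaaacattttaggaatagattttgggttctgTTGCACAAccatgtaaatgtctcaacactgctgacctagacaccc
Klf6 region, chr13:5871820-5871900: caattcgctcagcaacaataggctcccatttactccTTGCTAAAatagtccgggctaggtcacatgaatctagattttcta
Os9 region, chr10:127138760-127138840: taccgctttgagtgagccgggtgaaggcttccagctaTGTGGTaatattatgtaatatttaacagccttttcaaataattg
Ch25h region, chr19:34447762-34447842: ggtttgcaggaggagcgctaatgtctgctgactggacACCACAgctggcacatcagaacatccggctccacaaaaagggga
The Pik3cg, Jun and Spsb1 elements have C or G at the free base of AP-1, and those of Klf2 and Usp12 have A or T there. A match of letters is a description and does not show that a factor binds.

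The ETS-IRF composite GGAANNGAAA was present in 6 of the 314 windows, or 1.91% (0.704 to 4.11). It was present in 58 of the 304 windows of the lower regions, or 19.1% (14.8 to 24.0). The low share was not particular to the 314. The 1494 other regions higher in the first group had the element in 2.48%, and the 930 intronic ones among them in 2.15%. Over all 3389 regions the share was 11.2%. The genome windows with at least 3 CpGs had it in 2.90% and RefSeq promoters in 2.73%, so that the share in the 314 regions was below both, with both inside its interval. Among them are regions near Klf2, Sulf2, Cxcr5, Tubb2a and Usp3. The sequences at Klf2, Sulf2 and Cxcr5 follow, with the element in capitals.
Klf2 region, chr8:72322823-72322903: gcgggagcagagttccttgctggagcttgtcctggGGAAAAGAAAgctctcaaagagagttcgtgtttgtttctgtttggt
Sulf2 region, chr2:166190306-166190386: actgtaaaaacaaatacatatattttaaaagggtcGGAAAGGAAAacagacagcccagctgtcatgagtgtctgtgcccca
Cxcr5 region, chr9:44567134-44567214: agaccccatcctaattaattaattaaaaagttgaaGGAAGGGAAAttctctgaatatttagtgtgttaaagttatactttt
The element lay inside the region at all of these genes but Cxcr5. By area score the Klf2 region ranked 15 of 314 and the other 4 named here between 56 and 254, and the Klf2 window also holds an AP-1 and a C/EBP motif.

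CpG density and base composition hardly separated the regions from the lower regions. The median window held 1.33 CpGs per 100 bp, as did the lower regions. The genome windows with at least 3 CpGs had 1.33 as well, but they were chosen by CpG count. All genome windows that meet the rule on position had a median of 0.667. Median GC content was 46.0%, against 47.3% in the lower regions. It was 46.0% in the genome windows with at least 3 CpGs and 42.7% in all those windows. Repeat sequence covered a median of 13% of a window (9.67% in the lower regions) and a mean of 23.1%. The mean was 36.4% in the genome windows with at least 3 CpGs. A few regions with large area scores were nearly all repeat: the window near Fbxo48 was 99.0% repeat and that near Pink1 96.3%.

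The regions were unevenly spread over the chromosomes. Chromosome 9 held 38 of the 314, or 10.9 per 10000 genome windows with at least 3 CpGs, against 4.70 over the whole genome. Its lower regions numbered 21, or 6.04 per 10000 windows, against 4.55 overall. Chromosome 19 followed with 16 regions (8.33 per 10000), while X had 5 (1.59 per 10000) and Y had 1. Of the regions of both directions, 64.4% (50.9 to 76.5) were higher in the first group on chromosome 9 and 30.6% (16.3 to 48.1) on chromosome 17. The share was 69.6% (47.1 to 86.8) on chromosome 19 and 50.8% (46.8 to 54.8) over all chromosomes. These chromosomes were named after their values had been seen, and the intervals are not corrected for that choice. The 38 regions of chromosome 9 included 3 near Ctsh and 3 near Eef1a1.

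**Figure D4:**
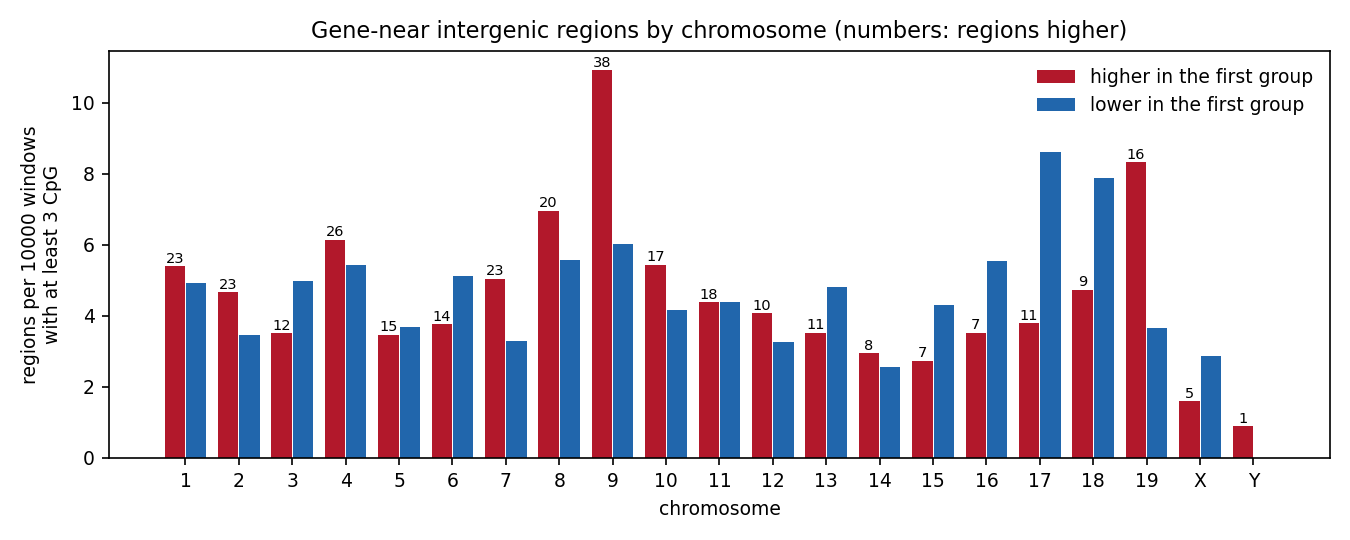
Regions per 10000 genome windows with at least 3 CpGs that meet the same rule on position (vertical axis), by chromosome, for regions higher (red, number of regions above the bar) and lower (blue) in the first group. Chromosome 9 has the highest red bar, at 10.9, and X and Y have low ones, at 1.59 and 0.890.

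The 314 regions had 278 protein-coding genes as their nearest, 1.27% of the 21951 annotated. Of these genes 251 had 1 region, 22 had 2, 4 had 3, and Sall1 had 7. Counting regions less than 1000 bp apart as 1 left 298 groups, and 284 with 10000 bp. A lower region was also nearest to 15 genes, which are 5.4% of the 278 and 5.75% of the 261 genes with a lower region. Of all protein-coding genes 1.19% were nearest to a lower region, and the difference between these shares was not tested.

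By area score the leading regions lay near genes of varied function. Os9, a lectin of protein quality control in the endoplasmic reticulum, had a region 17590 bp upstream of its start (chr10:127138353-127139090) with levels of 0.821 and 0.231 in the first and second group in the authors' deposited table. At 40 of the 41 positions listed there the FDR was below 0.05. Upstream of Ifnar2, a subunit of the type I interferon receptor, the levels were 0.688 and 0.261 in the authors' deposited table (chr16:91359171-91359889, 13253 bp from the start). Zfp36l1, an RNA-binding protein that promotes mRNA decay, had levels of 0.811 and 0.283 in the authors' deposited table at a region 22428 bp upstream. In these 3 the second group was low and the first group high, and 30 of 31 positions passed at Zfp36l1 and 23 of 47 at Ifnar2.

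The other regions among the 12 largest area scores lay near Sall1, Pink1 (a mitochondrial kinase), Ccn1 (a secreted matrix protein), Tex35, Fbxo48, Nrbf2 (a component of an autophagy lipid kinase complex), Spsb1, Sall3 and Usp12. Their differences in the authors' deposited table ran from 0.314 near Fbxo48 to 0.461 near Spsb1. A large area score did not always go with positions past the threshold: near Fbxo48 it was 0 of 56, with a lowest FDR of 0.158, and near Pink1 it was 12 of 59. Near Usp12, by comparison, 34 of 38 did.

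By size of the difference, the leading region lay 1432 bp upstream of Zfp810, a zinc finger gene. Its levels were 0.818 and 0.193 in the authors' deposited table, and it held 4 listed positions on 2 CpGs. In a region 49913 bp beyond the start of Ptger2, a prostaglandin E2 receptor, the levels were 0.854 and 0.248 in the authors' deposited table. All of its 15 positions passed. Ch25h, which makes the oxysterol 25-hydroxycholesterol in activated macrophages, had a region 27441 bp beyond its start with 0.753 and 0.155 in the authors' deposited table. All 9 listed positions of that region passed, but it holds 3 reference CpGs. The 9 positions had the same difference, 0.598 in the authors' deposited table, so they are not separate observations. Os9, Pik3cg and Spin2f completed the 6 largest, and the Spin2f region, on X and 82.0% repeat, had 3 of 4 positions past the threshold.

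Of the microglial identity genes, 1 of 24 was nearest to any of the regions. That gene was Sall1, a zinc finger transcription factor that maintains microglial identity, and it had 7 regions and none of the lower set. They fall into groups of different level. The region 18478 bp beyond the start (chr8:89025242-89026127) had 0.534 and 0.171, and the one 3358 bp upstream (chr8:89047460-89047580) 0.469 and 0.150, in the authors' deposited table. The 5 regions between 29678 and 40344 bp upstream were more methylated in both groups, from 0.821 to 0.867 in the first and from 0.466 to 0.570 in the second group in the authors' deposited table. Differences were alike across all 7, from 0.282 to 0.363 in the authors' deposited table, although the starting levels were not. Positions with an FDR under 0.05 numbered 14 of 120 in the region beyond the start and 1 of 12 in the one 3358 bp upstream. In the 5 far upstream they numbered 3 of 4, 0 of 7, 0 of 7, 3 of 6 and 2 of 4, in order of distance.

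**Figure D5:**
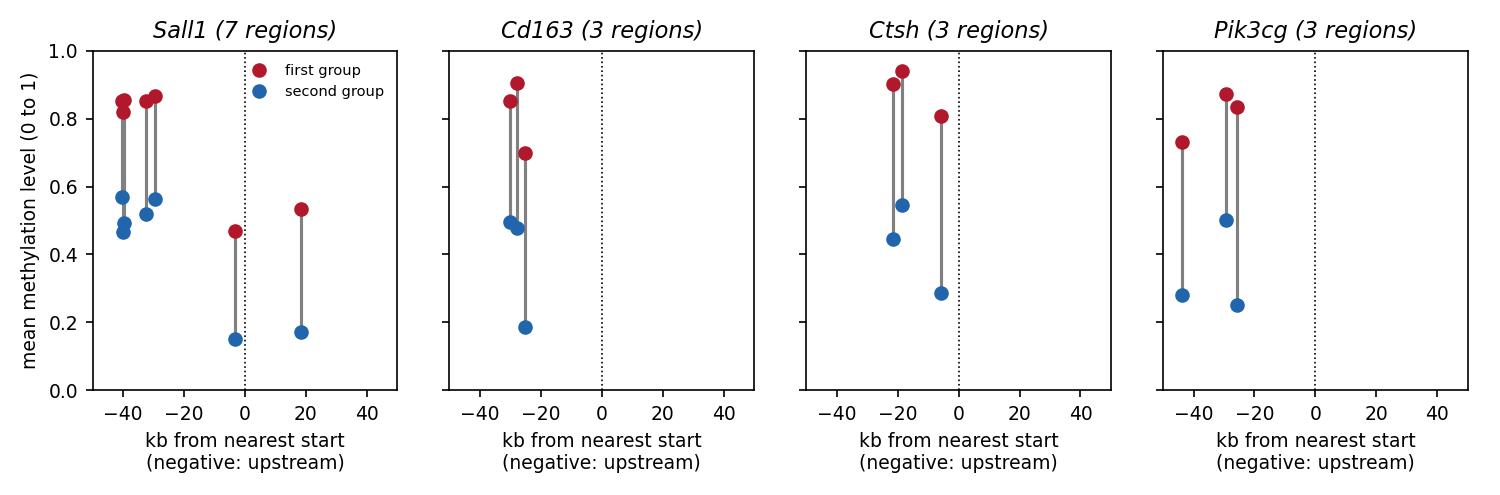
Mean methylation level per region (vertical axis, 0 to 1) in the first group (red) and second group (blue), by distance in kb from the nearest protein-coding start (horizontal axis, negative upstream), for Sall1 and 3 genes with 3 regions each; grey lines join the levels of a region. At Sall1 the 5 regions far upstream lie between 0.821 and 0.867 in the first group, and the other 2 at 0.534 and 0.469.

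Disease-associated microglial genes numbered 3 of 31 annotated. Apoc4, an apolipoprotein gene beside Apoe, had a region 2576 bp upstream with levels of 0.722 and 0.202 in the authors' deposited table, and 20 of its 22 positions passed. Fabp5, a fatty acid binding protein, had 0.828 and 0.463 in the authors' deposited table, and Ch25h is given above. The Clec7a region, outside this count because of its annotation, had 0.800 and 0.261 in the authors' deposited table (chr6:129470867-129471933). All 4 had the same direction, which the rule fixed, and of the same list the lower regions were nearest to Batf3 and Lpl.

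Border macrophage genes numbered 2 of 10. Cd163, the haemoglobin scavenger receptor of perivascular and other border macrophages, had 3 regions within 4921 bp of each other, 25223 to 30144 bp upstream. The nearest of them (chr6:124279302-124279565) had levels of 0.6998 and 0.186 in the authors' deposited table, with all 23 positions past the threshold. The others had 0.906 and 0.479 (chr6:124276697-124276862), and 0.852 and 0.497 (chr6:124274473-124274551), in the authors' deposited table. Siglec1, the sialic acid receptor sialoadhesin, had 0.684 and 0.235 in the authors' deposited table, 1764 bp upstream. No lower region had a gene of this list as its nearest. A share of cells of another macrophage type in either group was not tested, and methylation lists of this kind give no count of cells.

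Myeloid transcription factor genes numbered 7 of 56. Klf2, a Kruppel-like factor that restrains myeloid activation, had a region 3770 bp beyond its start (chr8:72322527-72323080) with 0.816 and 0.285 in the authors' deposited table, and 26 of 27 positions passed. Jun, a subunit of AP-1, had 0.696 and 0.284 (chr4:95081700-95082126), and Runx3 0.711 and 0.281 (chr4:135080342-135080895), in the authors' deposited table. Of their positions 12 of 31 and 10 of 39 passed. Bhlhe40, a repressor that affects macrophage proliferation, had 2 regions, 6342 and 33737 bp upstream, where the groups differed by 0.487 and 0.432 in the authors' deposited table. Klf6, Zeb2 and Hhex had 1 region each, with 0.396, 0.450 and 0.450 in the authors' deposited table. Hhex was the only gene of the list with a region in each direction. The lower regions were nearest to 8 genes of the list, Irf4, Klf4, Fos, Myb, Bcl6, Bhlhe41 and Batf3 among them.

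Lysosomal genes numbered 3 of 28. Ctsh, the protease cathepsin H, also had a lower region and had 3 of the 314 upstream, with levels of 0.808 and 0.288, 0.941 and 0.545, and 0.902 and 0.445 in the authors' deposited table at 5673, 18661 and 21552 bp. Grn, which encodes progranulin, had 0.723 and 0.268 in the authors' deposited table, and 20 of 21 positions passed. Atp6v0d2, a subunit of the proton pump, had 0.703 and 0.211 in the authors' deposited table. All 5 regions held at least 1 position past the threshold, as did 73.6% of the 314 regions and 77.9% of all 3389. Nothing is read from this, since the same comparison chose the regions.

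Interferon genes numbered 2 of 23, Ifnar2 and the antiviral GTPase Mx1. The Mx1 region had 0.853 and 0.538 in the authors' deposited table, and 0 of its 4 listed positions passed. Antigen presentation genes (0 of 19), TGF-beta signalling genes (0 of 27) and the marker genes of astrocytes, oligodendrocytes, neurons and endothelial or mural cells (0 of 10 each) had none. Markers of monocytes and neutrophils (0 of 12) and of lymphocytes (0 of 10) had none either. Over all lists, 18 of 271 genes (6.64%) were nearest to a region, beside 1.27% of all protein-coding genes. The lower regions were nearest to 14 of the same 271, beside 1.19% of all protein-coding genes. The lists were drawn up with earlier results of these data known, so nothing is read from these shares.

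Pik3cg, the catalytic subunit of a leukocyte phosphoinositide kinase, was chosen after its values were seen, as another gene with 3 regions. They lay between 25711 and 43916 bp upstream, where the groups differed by 0.582, 0.371 and 0.450 in the authors' deposited table. All 23 positions of the first passed, 1 of 4 of the second and 2 of 11 of the third. The 3 regions near Eef1a1, a translation elongation factor, span 685 bp and had lower levels, from 0.476 to 0.586 in the first and from 0.152 to 0.178 in the second group in the authors' deposited table.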

How the data were processed

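Bismark, Trim Galore and mm10 are named in the submitters' processing notes; which test made the tables, and with what settings, is not given in the sources used here. Per the file headers, the authors deposited, for regions and for single positions, a methylation level per group as a fraction from 0 to 1, the difference of the first minus the second group, an area score or test score, and for positions a p-value with its FDR. No column holds a value per sample, and 0 per-sample columns were left unused. Genes came from GENCODE release M21, sequence, repeats (lower-case bases), promoters and functional elements from RefSeq GRCm38.p6, and coordinates count from 1. The distance rule used starts of transcripts of protein-coding type. Motifs were searched in 300 bp around each midpoint with Python 3.11.15, pysam 0.24.0 and scipy 1.17.1, in regions and in all non-overlapping 300 bp genome windows that meet the rule on position. The search was tested on simulated data. Clopper-Pearson intervals (95%) cover counting error only.

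No test was added: the tables hold no value per sample, and an exact permutation test of 2 against 2 samples could not go below p = 0.333. The regions and gene lists were chosen with earlier results of these data known. Named were the 12 largest area scores, the 6 largest differences, the genes of the identity, disease, interferon, transcription factor and antigen lists, genes with 4 or more regions and regions with the composite element, 1 of which is not reported here by name; lysosomal and border macrophage genes and others so marked were named after their values were seen.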

Additional observations from a re-analysis of the deposited data

How the results depend on the processing

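Of 60 alternatives to 10 results, 37 stayed within 1.5 times a count or within the 95% interval of the value. The AP-1, C/EBP, RUNX, repeat, chromosome 9 and transcript settings, 24 in all, were chosen after seeing the data. The count of 314 regions became 118 with at least 10 cytosines, 199 with at least 3 reference CpGs and 199 with a distance of at most 25000 bp. The median difference of 0.396 was 0.427 and 0.413 under the first 2 of these, and the CpG density of 1.33 per 100 bp was 2.00 and 1.67, and 2.05 in the region itself. Regions with a position past the threshold, 73.6%, became 53.5% with an FDR under 0.01, 37.3% under 0.001, 61.5% at reference CpGs alone, 87.3% with at least 10 cytosines and 78.9% with at least 3 reference CpGs. The share upstream, 72.6%, was 77.9% within 25000 bp. In 500 bp windows the composite element was present in 4.14% (lower regions 26.3%), AP-1 in 24.5% (14.5%), C/EBP in 31.5% (20.1%) and RUNX in 42.0% (28.9%). In the region itself AP-1 was present in 12.4% (6.91%), C/EBP in 16.6% (9.54%) and RUNX in 21.02% (16.8%). AP-1 with C or G at its free base was present in 11.8% (6.58%). Longer windows hold more matches by construction. Regions nearest to a listed gene, 9.24%, became 13.1% with any listed start within 100000 bp.

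In every alternative run, the AP-1, C/EBP and RUNX shares were higher, and the composite share lower, than in the lower regions. No paired analysis was possible because only values per group were deposited in these tables, and leaving out replicates was not run for the same reason. Depth limits are unknown, since no counts are given.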
